A study of Rattus norvegicus with 6 samples.

Results

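The genes described here are 10 nuclear genes whose products copy, transcribe or look after mitochondrial DNA, or drive the making of mitochondria: Ppargc1a, Nrf1, Tfam, Polrmt, Tfb2m, Polg, Twnk, Lrpprc, Slirp and Lonp1. They were taken by symbol from a gene table of 32930 rows, in which each symbol had 1 row, and all 10 were among the 18455 genes with enough reads to test. The table covers liver RNA from 6 animals on a high-fat diet. In the HFD group (3 libraries) the diet was given with 0.5% CMC-Na, a suspending vehicle. In the HTG group (3 libraries) it was given with Huazhuo Tiaozhi granule (HTG), a mixture of herbs given for dyslipidaemia. The labels name no vehicle for HTG and give an intervention of 12 weeks. The study's rat methods describe 12 weeks of diet, with drugs in 0.5% CMC-Na given only in the later weeks. The label of the HTG libraries writes the agent as HCG, whereas their titles and the design text write HTG. The labels give the animals as Rattus norvegicus, the study's sequencing methods name C57BL/6 J mice, and the table lists mouse gene identifiers, so the species cannot be settled here. Neither strain nor age is given in the labels. No group on a normal diet was analysed here, so both groups share the diet, and every difference below is HTG against HFD.

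Mitochondrial DNA is a small circular genome that encodes core subunits of the respiratory chain together with the ribosomal and transfer RNAs needed to translate them. Everything else required for its copying and reading is imported from the cytosol. The packaging protein TFAM bends the promoter DNA and, with TFB2M, lets the polymerase POLRMT start transcription, while the helicase TWNK opens the duplex for the polymerase POLG. The transcripts are then held stable by LRPPRC bound to SLIRP, and the matrix protease LONP1 degrades unbound TFAM along with damaged proteins. The coactivator PGC-1α, from Ppargc1a, acts with transcription factors such as NRF1 on many of these nuclear genes, and in liver it also drives fasting genes of glucose output and fatty acid oxidation.

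NRF1 binds a palindrome-like site, and its core GCGCANGCG (CGCNTGCGC on the other strand) was searched for on both strands of the RefSeq promoter windows of the rat assembly GRCr8, which run from 250 bases before to 50 bases after each gene's start. These are rat sequences matched by symbol, whereas the expression rows are mouse identifiers. Entries were found for 9 of the 10 genes, all but Lonp1. The core was present in 2 of these 9, Polrmt and Tfb2m, against 1940 of all 33469 windows (5.8%). The windows of Ppargc1a, Nrf1, Tfam, Polg, Twnk, Lrpprc and Slirp did not hold these letters. The pair of windows with the core is shown because both genes encode parts of the transcription machinery and yet differed in the direction of their values in the libraries. Each is written on the strand of its gene with the core in capitals. The core starts 5 bases before the start of Polrmt, at chr7:10609946-10610245 on the plus strand, and 46 bases before that of Tfb2m, at chr13:93828545-93828844 on the minus strand.
Polrmt: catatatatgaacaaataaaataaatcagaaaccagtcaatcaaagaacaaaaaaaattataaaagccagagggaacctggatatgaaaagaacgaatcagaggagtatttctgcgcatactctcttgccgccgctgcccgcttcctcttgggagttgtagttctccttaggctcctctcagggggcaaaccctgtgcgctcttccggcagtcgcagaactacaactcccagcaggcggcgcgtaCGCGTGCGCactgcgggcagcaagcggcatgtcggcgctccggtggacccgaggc
Tfb2m: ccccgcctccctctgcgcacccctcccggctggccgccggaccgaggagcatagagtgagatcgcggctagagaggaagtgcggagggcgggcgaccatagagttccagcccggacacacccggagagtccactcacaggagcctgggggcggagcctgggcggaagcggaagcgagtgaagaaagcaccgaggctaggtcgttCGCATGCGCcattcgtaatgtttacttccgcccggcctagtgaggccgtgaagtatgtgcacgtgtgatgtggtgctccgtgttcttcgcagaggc

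Total estimated counts ranged from 50648778 (HTG library 3) to 90563477 (HTG library 2). Among low values 4 was over-represented, with 6450 occurrences against 2549 of 3 and 1757 of 5, but values of 1 (5104) and 2 (4229) were common too, so the counts are not whole multiples of 4. If 4 counts stood for 1 fragment, the depth would be 12662194 to 22640869 fragments per library. Values per library are counts scaled to library size (CPM) after TMM scaling. Levels of different genes are compared only in FPKM, which divides by a length for each gene. Differences were tested with the quasi-likelihood test of edgeR over all genes, and an adjusted p is a Benjamini-Hochberg value over those 18455 genes. With an unadjusted p under 0.05, 12.3% of all genes were higher in HTG and 12.4% lower, and 0.0108% passed an adjusted p of 0.05. Nothing in the labels says how the libraries of a group were kept apart beyond the division of the animals, so the p-values measure the spread between these libraries.

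Of the 10 genes, Slirp was higher in HTG and Tfam, Tfb2m and Lonp1 were lower at an unadjusted p under 0.05. The other 6 did not pass, and none of the 10 passed an adjusted p of 0.05 in edgeR, where the lowest value was 0.0612 and the highest 0.926. DESeq2 called 1 of the 10 at that threshold, Slirp, beside 13% of all genes (5.91% higher and 7.1% lower), and limma on FPKM called 0, beside 0.759% of genes on log2(FPKM + 0.1) and 7.99% on log2(FPKM + 1). The count of 1 higher and 3 lower stands against a background of 12.3% and 12.4% of all genes, with the share lower above that of the whole table and the share higher close to it. With 1 library left out, 1 of the 10 was lower in the fits without HFD library 2, without HTG library 2 and without HTG library 3, against 9.72%, 8.09% and 8.7% of all genes in those fits, so the excess was lost in 3 of the 6 left-out fits. Fitted differences were negative for 8 genes and positive for 2, with a median log2 fold change of -0.29 beside 0.03 over all genes tested. In TMM-scaled CPM the groups did not overlap for 1 gene that was higher (Slirp) and 4 that were lower (Tfam, Tfb2m, Lrpprc and Lonp1), while 16.5% of all genes lay apart in the higher and 15.5% in the lower direction. Without HTG library 3, the shallowest, these counts were 2 and 5, beside 21% and 19.3% of all genes under the same setting. In bulk liver RNA, fewer cells of a type and less RNA per cell cannot be told apart.

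**Figure D1:**
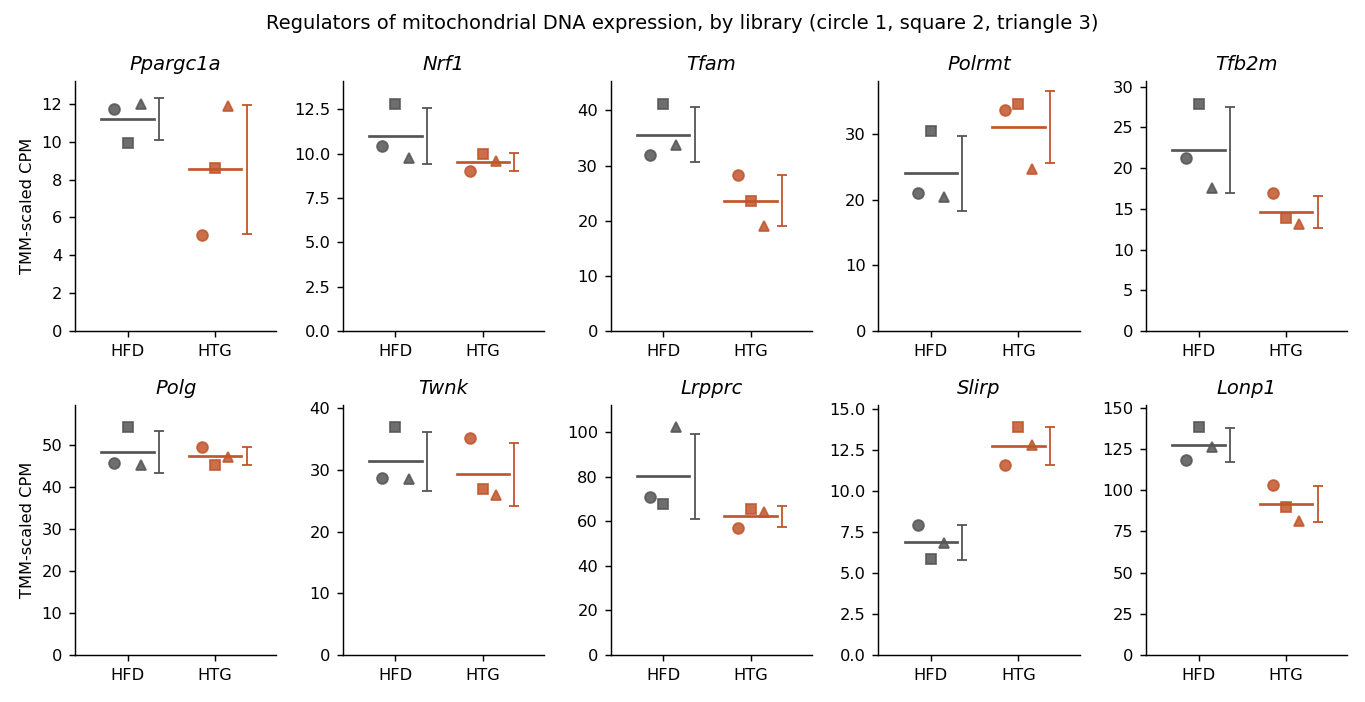
TMM-scaled CPM of each of the 10 genes in the 3 HFD (grey) and 3 HTG (orange) libraries, with the group mean as a horizontal line and 1 SD as a bar beside the points; each panel has its own axis from 0. The HTG points lie above all HFD points only for Slirp, at 11.6 to 13.9 against 5.85 to 7.96, and below them for Tfam, Tfb2m, Lrpprc and Lonp1.

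**Figure D2:**
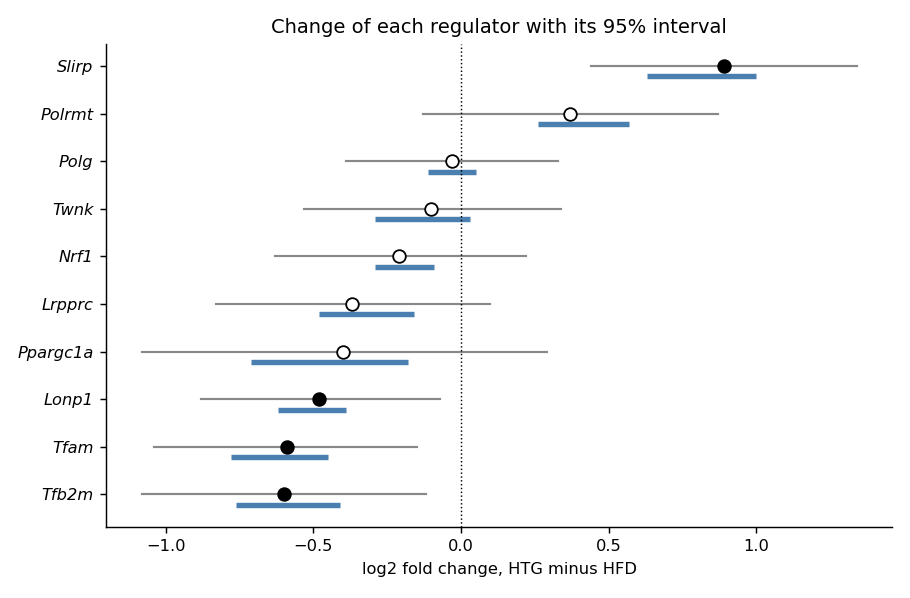
Log2 fold change of each gene, HTG minus HFD, from edgeR (circle, filled at an unadjusted p under 0.05), with its 95% interval (grey line) and the range of the estimate over the alternative settings (blue bar). Slirp stands at 0.89 and the other filled circles between -0.60 and -0.48; the blue bars of Polg and Twnk cross 0.

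Neither of the regulators of biogenesis passed an unadjusted p of 0.05. Ppargc1a (ENSMUSG00000029167, chromosome 5, 51611592 to 51725046, minus strand), the inducible coactivator, had 11.7, 9.93 and 12.0 CPM in HFD libraries 1, 2 and 3 and 5.07, 8.63 and 11.9 CPM in HTG libraries 1, 2 and 3. HTG library 1 was lowest and HTG library 3 stood within the HFD range, so the groups overlapped. The group means were 11.2 ± 1.12 and 8.52 ± 3.4 CPM (SD, n = 3), with a log2 fold change of -0.40 (SE 0.30, 95% interval -1.08 to 0.29, edgeR adjusted p = 0.444). The HTG spread was the widest, relative to its mean, of the 10 genes. Without HTG library 3 the log2 fold change was -0.71 at an unadjusted p of 0.0431 in edgeR, and without HTG library 1 it was -0.18 at an unadjusted p of 0.47, so single libraries set both its size and whether Ppargc1a passed. The deposited counts behind these values ran from 395 to 862.

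Nrf1 (ENSMUSG00000058440, chromosome 6, 30047987 to 30153457, plus strand) is the factor whose binding core was searched for above. HFD libraries had 10.4, 12.8 and 9.77 CPM, HTG libraries 9.0, 10 and 9.59 CPM. HTG library 2 exceeded HFD library 3, and the means of 11.0 ± 1.62 and 9.53 ± 0.506 CPM differed by less than the HFD spread. The log2 fold change was -0.21 (SE 0.19, 95% interval -0.63 to 0.22, edgeR adjusted p = 0.522), which bounds a decrease at 0.644 and an increase at 1.16 times the HFD level. Without HFD library 2 the Nrf1 value was -0.09.

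Among the proteins that package and transcribe mitochondrial DNA, Tfam and Tfb2m were lower in HTG and Polrmt was not. Tfam (ENSMUSG00000003923, chromosome 10, 71061294 to 71074110, minus strand) had 32.0, 41.2 and 33.7 CPM in HFD and 28.3, 23.5 and 19.1 CPM in HTG. Each HTG library lay below each HFD library, with HTG library 1 nearest. The means of 35.6 ± 4.87 and 23.6 ± 4.56 CPM gave a log2 fold change of -0.59 (SE 0.19, 95% interval -1.04 to -0.15), an HTG level of 0.663 times HFD, with an unadjusted p of 0.0152 and an adjusted p of 0.114 in edgeR. Over the alternative settings the adjusted p of Tfam ran from 0.0614 to 0.303. Without HTG library 3 the value was -0.45 at an unadjusted edgeR p of 0.0635.

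Tfb2m (ENSMUSG00000026492, chromosome 1, 179355620 to 179373832, minus strand), which melts the promoter for the polymerase, followed the same order of groups, with 21.2, 27.9 and 17.6 CPM in HFD against 16.9, 13.9 and 13.1 CPM in HTG. The gap between the groups was narrow, 16.9 in HTG library 1 against 17.6 in HFD library 3. Its log2 fold change was -0.60 (SE 0.21, 95% interval -1.08 to -0.12), with an unadjusted p of 0.0205 and an adjusted p of 0.13 in edgeR, and adjusted p of 0.0821 to 0.329 over the alternatives. The unadjusted call was lost in edgeR without HFD library 2 (-0.41, unadjusted p of 0.0723), without HTG library 2 (-0.57, p of 0.0604) and without HTG library 3 (-0.52, p of 0.0708).

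Polrmt (ENSMUSG00000020329, chromosome 10, 79571957 to 79582415, minus strand), the mitochondrial RNA polymerase itself, had 21.1, 30.5 and 20.4 CPM in HFD and 33.7, 34.6 and 24.7 CPM in HTG. HTG library 3 lay below HFD library 2, so the groups overlapped. The means were 24.0 ± 5.62 and 31.0 ± 5.47 CPM, and the log2 fold change of 0.37 (SE 0.22, 95% interval -0.13 to 0.87) had an adjusted p of 0.335 in edgeR. Without HFD library 2 it was 0.57 at an unadjusted edgeR p of 0.0246.

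The replication enzymes gave the smallest differences. Polg (ENSMUSG00000039176, chromosome 7, 79095979 to 79116110, minus strand), the catalytic subunit of the only replicative DNA polymerase of mitochondria, had 45.9, 54.3 and 45.4 CPM in HFD and 49.7, 45.4 and 47.3 CPM in HTG. The HTG range of 45.4 to 49.7 fell within the HFD range of 45.4 to 54.3, with means of 48.5 ± 4.99 and 47.5 ± 2.18 CPM. The log2 fold change was -0.03 (SE 0.16, 95% interval -0.39 to 0.33, edgeR adjusted p = 0.926), and its sign turned under upper-quartile scaling (0.01). The interval leaves room for levels from 0.762 to 1.26 times HFD. Twnk (ENSMUSG00000025209, chromosome 19, 44994102 to 45001201, plus strand), the helicase, had 28.7, 36.9 and 28.6 CPM in HFD and 35.2, 26.9 and 25.9 CPM in HTG. The highest Twnk library of each group was well above the other members of that group, and the log2 fold change of -0.10 (SE 0.19, 95% interval -0.53 to 0.34, edgeR adjusted p = 0.786) turned to 0.03 without HFD library 2.

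The largest difference of the 10 was found in the mRNA-stabilising pair. Slirp (ENSMUSG00000021040, chromosome 12, 87490666 to 87498976, plus strand), the small RNA-binding partner, had 7.96, 5.85 and 6.85 CPM in HFD libraries and 11.6, 13.9 and 12.8 CPM in HTG libraries. The lowest HTG library was well clear of the highest HFD library. The means of 6.89 ± 1.05 and 12.7 ± 1.13 CPM corresponded to a 1.85-fold higher level in HTG (95% interval 1.35 to 2.53), a log2 fold change of 0.89 (SE 0.20) with an unadjusted p of 0.00178 and an adjusted p of 0.0612 in edgeR. In all 16 alternative settings Slirp was higher at an unadjusted p under 0.05, with log2 fold changes of 0.63 to 1.0. Its adjusted p ran from 0.00538 in DESeq2 to 0.206, and was under 0.05 in 3 of the 16. The deposited counts were 542, 390 and 492 in HFD and 903, 1354 and 598 in HTG, the fewest in HFD of the 10 genes.

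Slirp overlaps other genes on the opposite strand. The study's methods describe libraries whose second strand was marked with dUTP, but whether counting used strand is not given in the sources used here. Reads of overlapping genes therefore cannot be told apart with certainty. The span of Slirp shares 3132 bases with that of Snw1, a splicing and transcription cofactor. Snw1 had a level of 26.1 CPM in HFD and 15.7 CPM in HTG (log2 fold change -0.73, SE 0.20, edgeR adjusted p = 0.0814). That direction was opposite to Slirp. It shares 23 bases with Alkbh1, a nucleic acid demethylase, at 10.1 CPM in HFD and 16.5 CPM in HTG (log2 fold change 0.72, SE 0.22, edgeR adjusted p = 0.0991). Twnk likewise shares 780 bases with Mrpl43, a mitochondrial ribosomal protein gene on the opposite strand, with 29.7 and 18.7 CPM. Polg overlaps Fanci over 4034 bases, but that gene had only 20 to 81 counts. The remaining overlapping rows, at Ppargc1a, Nrf1, Tfb2m and Lrpprc, had at most 17 counts in any library.

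Lrpprc (ENSMUSG00000024120, chromosome 17, 85012675 to 85097990, minus strand), the larger partner and a pentatricopeptide repeat protein, had 70.6, 67.8 and 102 CPM in HFD and 56.8, 65.4 and 64.3 CPM in HTG. HFD library 3 stood far above all others, and the groups were apart by 65.4 against 67.8. The log2 fold change was -0.37 (SE 0.20, 95% interval -0.83 to 0.10, edgeR adjusted p = 0.307). Without HFD library 3 it was -0.16 at an unadjusted p of 0.394. Lrpprc did not pass an unadjusted p of 0.05 in any alternative.

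Lonp1 (ENSMUSG00000041168, chromosome 17, 56921297 to 56933887, minus strand), the protease, had 118, 138 and 126 CPM in HFD and 103, 89.7 and 81.3 CPM in HTG. All HTG libraries were below all HFD libraries. The means were 127 ± 10.1 and 91.4 ± 11.0 CPM, and the log2 fold change of -0.48 (SE 0.18, 95% interval -0.88 to -0.07) put HTG at 0.718 times HFD, with an unadjusted p of 0.0259 and an adjusted p of 0.145 in edgeR. The adjusted p ran from 0.0634 to 0.38 over the alternatives. The unadjusted call was lost in edgeR without HFD library 2 (-0.42, unadjusted p of 0.0717), without HTG library 2 (-0.47, p of 0.0602) and without HTG library 3 (-0.39, p of 0.111).

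The mitochondrial mRNAs took a larger share of the counts in HTG. The 13 mitochondrial mRNAs together held 6.31%, 4.82% and 5.18% of each HFD library's counts, and 9.12%, 14.9% and 13% of those of HTG. The groups did not overlap, and the means of 5.44 ± 0.777% and 12.3 ± 2.95% differed by 6.9 percentage points, a ratio of 2.27 (exact permutation test, two-sided, p = 0.1, the smallest that 3 against 3 libraries allow). This was 1 of 3 such single-value tests, with the partner ratios given below, and the Benjamini-Hochberg value over them was also 0.1. All 13 were higher at an unadjusted p under 0.05, with log2 fold changes from 1.08 (mt-Co3) to 1.51 (mt-Nd6), but 0 passed an adjusted p of 0.05 in edgeR, against 13 in DESeq2. In limma 10 passed on log2(FPKM + 1) and 0 on log2(FPKM + 0.1). The share of FPKM was 12.7 ± 1.45% in HFD and 23.5 ± 4.43% in HTG. Both mitochondrial rRNAs were also higher, mt-Rnr1 by 1.2 and mt-Rnr2 by 0.98 on the log2 scale (edgeR adjusted p = 0.114 and 0.158). The libraries were selected with oligo(dT). The gene mt-Rnr2 did not pass an unadjusted p of 0.05 without HTG library 2 or HTG library 3, and its log2 values with 1 library left out ran from 0.63 to 1.25.

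Set against the regulators, the mitochondrial mRNAs gave on average more counts per regulator count in HTG in each case. All 10 ratios have the same numerator, whose share of the counts alone had a ratio of 2.27 with groups apart. A gene with little difference of its own, such as Polg, therefore falls near that value, and the 10 ratios are not separate results. Per count of Tfam there were 1890, 1250 and 1500 mitochondrial mRNA counts in HFD and 3250, 5890 and 7340 in HTG, a ratio of group means of 3.56 (exact permutation test, two-sided, p = 0.1, Benjamini-Hochberg value over the 10 genes 0.125). The corresponding ratios were 3.45 for Tfb2m, 3.24 for Lonp1, 3.16 for Ppargc1a and 2.81 for Lrpprc. They were 2.58 for Nrf1, 2.5 for Twnk and 2.33 for Polg. For these 8 genes the groups did not overlap. They overlapped for Polrmt, with a ratio of 1.77, and for Slirp, with 1.22. Per count of Slirp there were 7610, 8770 and 7360 mitochondrial mRNA counts in HFD and 7930, 9980 and 11000 in HTG (exact permutation test, two-sided, p = 0.2).

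The balance between partners was taken as a ratio of FPKM within each library. Its absolute size depends on the lengths that FPKM divides by. Slirp to Lrpprc stood at 0.309, 0.236 and 0.184 in HFD and at 0.559, 0.58 and 0.543 in HTG. The HTG libraries were close together and all above the HFD libraries, with means of 0.561 ± 0.019 and 0.243 ± 0.0626, a ratio of 2.31 (exact permutation test, two-sided, p = 0.1). Polrmt to Tfam stood at 0.623, 0.699 and 0.571 in HFD and at 1.13, 1.39 and 1.22 in HTG. Tfam FPKM therefore exceeded Polrmt FPKM in every HFD library and was below it in every HTG library, although Polrmt on its own did not separate the groups. The means were 0.631 ± 0.0645 and 1.25 ± 0.136, a ratio of 1.97 (exact permutation test, two-sided, p = 0.1). With 3 libraries against 3 neither ratio could reach a p under 0.1, and both held their direction with each library left out in turn. Slirp and Tfam each lay apart between the groups on their own, so the ratios are not separate results from those of the single genes.

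**Figure D3:**
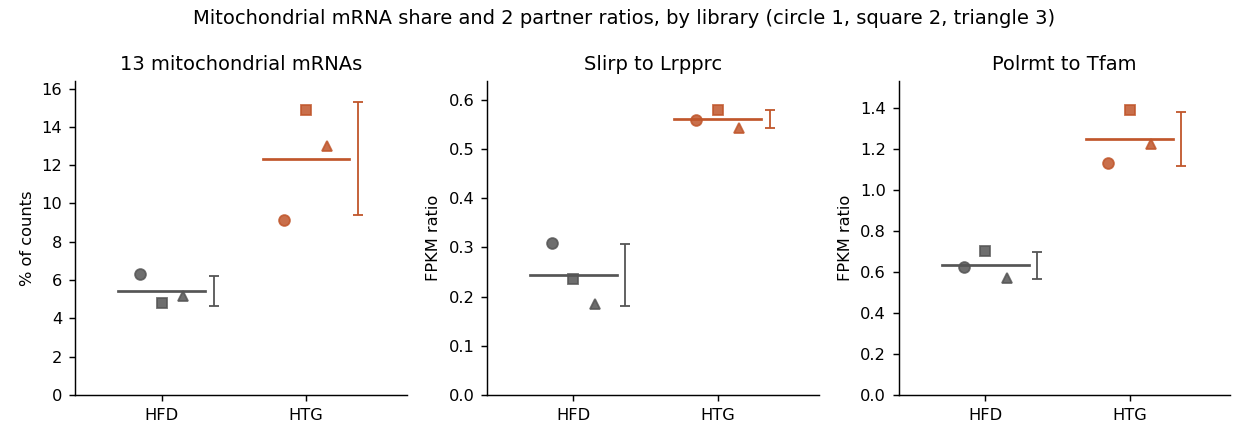
The share of all counts taken by the 13 mitochondrial mRNAs (left, percent), the Slirp to Lrpprc FPKM ratio (middle) and the Polrmt to Tfam FPKM ratio (right) in each HFD (grey) and HTG (orange) library, with group means as lines and 1 SD as bars. In each panel the 3 HTG points lie above the 3 HFD points, at 9.12 to 14.9% against 4.82 to 6.31% for the share.

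In FPKM, the order of the 10 levels in HFD began with Lonp1 at 28.1 ± 0.857 FPKM, which stood clear of the rest. Next came Lrpprc at 9.15 ± 2.46, Tfam at 7.72 ± 0.592, Tfb2m at 7.59 ± 1.37 and Twnk at 7.52 ± 0.686 FPKM, whose neighbouring ranges overlapped. Polrmt (4.89 ± 0.847 FPKM) and Polg (4.34 ± 0.193 FPKM) formed the next pair with overlapping ranges. Slirp (2.15 ± 0.436 FPKM) and Ppargc1a (1.65 ± 0.252 FPKM) overlapped too, and Nrf1 was lowest at 1.02 ± 0.0907 FPKM. In HTG the order was Lonp1 (19.6 ± 3.06 FPKM), Twnk (6.86 ± 1.28 FPKM), Lrpprc (6.86 ± 0.811 FPKM), Polrmt (6.23 ± 1.49 FPKM), Tfam (5.01 ± 1.13 FPKM) and Tfb2m (4.9 ± 0.796 FPKM). Polg (4.13 ± 0.264 FPKM), Slirp (3.85 ± 0.57 FPKM), Ppargc1a (1.2 ± 0.433 FPKM) and Nrf1 (0.863 ± 0.101 FPKM) closed it. In HTG only Lonp1 from Twnk and Slirp from Ppargc1a had ranges of neighbours that did not overlap. Among all tested genes Lonp1 lay between the 90.4 and 93.1 percentile of FPKM and Nrf1 between the 38.1 and 46.1 percentile. The length implied by counts and FPKM was 3214 to 3315 bases for Slirp, 10683 to 11081 for Nrf1 and 11123 to 11496 for Polg. Nrf1 had 16 listed transcripts, Polg 15 and Slirp 3. Whether these are the lengths of the transcripts present was not tested, and the order between genes depends on them.

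Genes with the most similar pattern over the 6 libraries were sought among 8006 genes with a mean of at least 10 CPM, by Pearson's r of log2 values, as a description. Ppargc1a was most like Spred1 (r = 0.985), Cbl (0.9822) and Golga3 (0.9749), and only 20 genes had r above 0.9. Tfam was most like Dtnb (0.9932), Usp4 (0.9931) and Rpl10-ps1 (0.9931), with 595 genes above 0.9. Polrmt was most like Rps21 (0.9936), Use1 (0.9906) and Timm21 (0.9905), with 96 genes above 0.9. The points share the library, its depth and the group difference.

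Around the 10 genes, the wider pathway was counted in lists. Each count is to be read beside the 12.3% of all genes higher and 12.4% lower at the same unadjusted threshold. Of 21 other coactivators and factors of biogenesis, 2 were higher and 3 lower by the unadjusted threshold of 0.05, with a median log2 fold change of 0.01. The lower ones were Prkaa2, a catalytic subunit of the energy sensor AMPK (log2 -0.95, SE 0.19, edgeR adjusted p = 0.0582), Gabpa, the DNA-binding subunit of NRF2/GABP (-0.51, SE 0.15), and Ppara, the nuclear receptor of fatty acid oxidation (-0.80, SE 0.33). Prkaa2 went from 44.3 ± 8.03 to 23.0 ± 2.9 CPM and Gabpa from 34.7 ± 0.706 to 24.3 ± 1.75 CPM. The higher ones were the acetyltransferase gene Kat2a (0.50, SE 0.18) and the deacetylase gene Sirt1 (0.45, SE 0.19), whose products acetylate and deacetylate PGC-1α. With each of the 6 libraries left out in turn, Prkaa2 and Gabpa passed an unadjusted p of 0.05 in 6 fits, Kat2a in 3 and Ppara in 2. Sirt1 passed in 1 of the 6, that without HFD library 1. Kat2a did not pass without HFD library 2 or either of HTG libraries 1 and 2, and Ppara passed only without HFD library 1 or HTG library 2. Over these 6 fits the log2 values were 0.37 to 0.63 for Kat2a, 0.30 to 0.56 for Sirt1 and -1.08 to -0.45 for Ppara. Of 8 listed symbols of genes known to be driven by PGC-1α in liver, 7 were in the table. The other, G6pc1, is another name of G6pc. Of the 7, 0 were higher and 2 lower. These were Cpt1a, the gate of fatty acid entry into mitochondria (log2 -1.19, SE 0.29, edgeR adjusted p = 0.0654), and G6pc, the last step of glucose output (-1.84, SE 0.72), which passed an unadjusted p of 0.05 only without HFD library 1 or HTG library 1 among the 6 left-out fits (range -2.80 to -1.32). Pck1, another classic target, did not pass (-0.67, SE 0.40). Neither did the remaining genes of that list, Cycs (-0.04), Sod2 (-0.14), Esrra (-0.01) and Sirt3 (-0.27).

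Other mitochondrial DNA transcription factors gave 3 higher and 1 lower of 8, beside 12.3% and 12.4% of all genes. The higher ones were the MTERF family genes Mterf1a (log2 1.01, SE 0.30), Mterf1b (1.35, SE 0.41) and Mterf2 (1.37, SE 0.57), at 0.777 to 4.66 CPM on average in either group. Mterf1a and Mterf1b are near-identical copies, so the split of reads between them is uncertain, and Mterf2 passed an unadjusted p of 0.05 only without HFD library 1 or HTG library 1 when each library was left out (range 1.03 to 2.12). The lower one was Mrpl12 (-0.63, SE 0.19), a ribosomal protein gene whose product also binds POLRMT. Replication and maintenance genes gave 3 higher and 0 lower of 13, and their summed level was 173 to 197 CPM in HFD and 219 to 228 CPM in HTG. Ssbp1, the single-stranded DNA binding protein of the replication fork, had 25.8, 20.4 and 18.6 CPM in HFD and 33.3, 41.5 and 34.4 CPM in HTG (log2 0.75, SE 0.18, edgeR adjusted p = 0.0657). It was apart between the groups, as were the nuclease and helicase gene Dna2 (0.52, SE 0.15) and the nuclease gene Exog (0.84, SE 0.32). In that direction 16.5% of all genes lay apart. Exog passed only without HFD library 3 or HTG library 2 in the left-out fits (range 0.65 to 1.09).

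Genes of nucleotide supply gave 2 higher and 2 lower of 13, beside 12.3% and 12.4% of all genes. Dguok, the mitochondrial deoxyguanosine kinase, was higher (log2 0.57, SE 0.17), as was the pyrimidine nucleotide carrier gene Slc25a36 (0.59, SE 0.22), the latter only without HFD library 1 or HTG library 2 when 1 library was left out (range 0.50 to 0.75). Ak4, a matrix adenylate kinase, was lower at 31.8 ± 5.79 against 75.9 ± 13.8 CPM (-1.26, SE 0.21, edgeR adjusted p = 0.0538), and the ADP/ATP carrier gene Slc25a5 was lower by -0.74 (SE 0.22) on the log2 scale. Of 22 genes of mitochondrial RNA processing and decay, the group to which Lrpprc and Slirp stand closest, 2 were higher and 2 lower, with a median of -0.15. Grsf1, which organises the RNA granules, stood at 46.9 ± 8.3 against 79.9 ± 13.6 CPM (-0.77, SE 0.20, edgeR adjusted p = 0.0763), and Ptcd2, a pentatricopeptide repeat gene, was lower by -0.58 (SE 0.24). Fastk (0.56, SE 0.18) and Pnpt1, the exoribonuclease PNPase (0.45, SE 0.17), were higher. When each library was left out, Grsf1 passed in all 6 fits, Fastk in all but that without HTG library 2, Ptcd2 only without HFD library 2 or HTG library 1, and Pnpt1 only without HFD library 3. The log2 values over these fits ran from 0.43 to 0.63 for Fastk, from -0.92 to -0.39 for Ptcd2 and from 0.36 to 0.59 for Pnpt1.

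Translation factors gave 0 higher and 3 lower of 13, beside 12.3% and 12.4% of all genes. Gfm1, the elongation factor G1, was at 30.7 ± 8.07 against 66.5 ± 22.2 CPM (log2 -1.12, SE 0.28, edgeR adjusted p = 0.0682). Taco1, an activator of COX1 translation (-0.82, SE 0.29), lost its call without HFD library 3 or either of HTG libraries 2 and 3 (left-out range -1.01 to -0.48). The elongation factor Tu gene Tufm (-0.66, SE 0.23) lost it without HFD library 3 or HTG library 2 (left-out range -0.89 to -0.45). Of 14 other proteases and chaperones, the group of Lonp1, 1 was higher and 5 lower, with a median of -0.34 and a summed level of 1330 to 1660 CPM in HFD against 776 to 1180 CPM in HTG. The chaperonin Hspd1 was at 162 ± 55.7 against 386 ± 52.7 CPM (-1.25, SE 0.28, edgeR adjusted p = 0.0612) and mitochondrial Hsp70, Hspa9, at 202 ± 70.9 against 475 ± 65.1 CPM (-1.23, SE 0.28, edgeR adjusted p = 0.0613). The processing peptidase gene Pmpcb was lower by -0.51 (SE 0.18) on the log2 scale, a call lost without HFD library 2 or either of HTG libraries 2 and 3 (left-out range -0.69 to -0.42). Clpp, the other soluble matrix protease beside Lonp1, was higher at 57.0 ± 2.69 against 37.4 ± 0.887 CPM (0.61, SE 0.15, edgeR adjusted p = 0.0654), and so differed in direction from Lonp1. In each of these lists 0 genes passed an adjusted p of 0.05 in edgeR. At that threshold DESeq2 called 2 lower biogenesis factors, 2 higher and 1 lower transcription factors and 1 higher replication gene. It also called 2 lower genes of nucleotide supply, 1 lower of RNA processing, 1 lower translation factor, 1 higher and 2 lower proteases or chaperones, 1 lower PGC-1α-driven gene and 1 higher rRNA. Over all genes DESeq2 called 5.91% higher and 7.1% lower. In limma on log2(FPKM + 1), 1 biogenesis factor, 1 nucleotide supply gene, 1 RNA processing gene, 2 chaperones and 1 PGC-1α-driven gene were called lower, and 0 of these lists on log2(FPKM + 0.1).

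**Figure D4:**
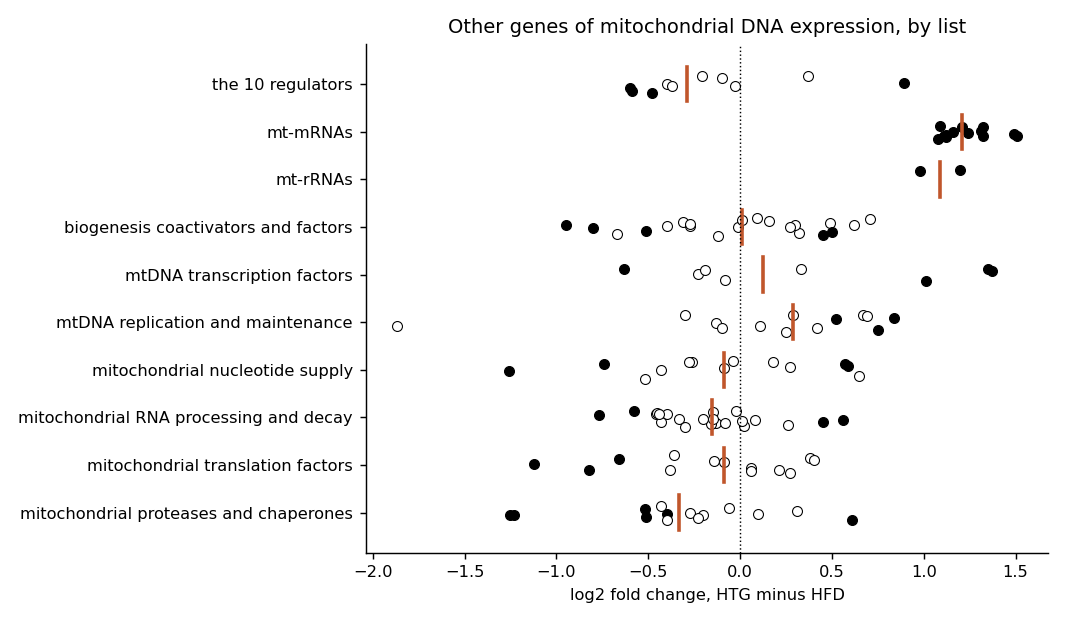
Log2 fold change, HTG minus HFD, of each tested gene in the lists around mitochondrial DNA expression (circles, filled at an unadjusted p under 0.05, spread vertically only to show them apart), with the list median as an orange tick. All mitochondrial mRNAs lie between 1.08 and 1.51, whereas the 10 regulators centre on -0.29 and the proteases and chaperones on -0.34.

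Markers of liver cells were present throughout, with hepatocyte markers summing to 85900 to 105000 CPM in HFD and 83700 to 87500 CPM in HTG. Of the 9, 1 was higher (Apoa1, log2 1.24) and 4 lower (Cps1, Ass1, Apob and Tat at an unadjusted p under 0.05 in edgeR), while 0 passed an adjusted p of 0.05 in edgeR, against 1 higher and 4 lower in DESeq2. The unadjusted edgeR counts of markers, here and below, stand beside 12.3% of all genes higher and 12.4% lower. Of 7 Kupffer cell and macrophage markers 0 were higher and 3 lower, Adgre1, Lyz2 and Cd5l, with sums of 802 to 1440 CPM in HFD and 527 to 950 CPM in HTG. Adgre1 passed an unadjusted p of 0.05 with any 1 library left out, Lyz2 only without HFD library 2, HFD library 3 or HTG library 1 (log2 -1.05 to -0.57 over the 6 fits) and Cd5l only without HFD library 2 or HTG library 1 (-1.19 to -0.61). Sums of the other lists overlapped for leukocytes (52.0 to 64.5 and 39.7 to 81.3 CPM), sinusoidal endothelium (45.0 to 103 and 76.8 to 119 CPM), stellate cells (140 to 202 and 116 to 169 CPM) and red cells (234 to 422 and 258 to 484 CPM). Of the 6 stellate markers Reln was lower at an unadjusted edgeR p under 0.05 (log2 -0.70, SE 0.20). So was Alas2 of the 5 red cell markers (-0.49, SE 0.18). Reln passed in all 6 left-out fits and Alas2 in 3. At an adjusted p under 0.05 DESeq2 called 3 macrophage markers and 1 stellate marker lower and 1 biliary marker higher. Over all genes it called 5.91% higher and 7.1% lower. Biliary markers summed to 8.41 to 10.2 CPM in HFD and 10.7 to 10.9 CPM in HTG, with Sox9 higher (log2 0.79) and Epcam lower (-0.95) of the 4. Sox9 passed in all 6 left-out fits, and Epcam only without HFD library 3 or HTG library 1 (range -1.22 to -0.65). Of markers of tissues foreign to liver, those of muscle and brown fat were scarce. The muscle list summed to at most 1.69 CPM with Ckm and Myh4 at 0 in all libraries, and the brown fat list to at most 0.184 CPM. The exocrine pancreas list summed to 4.57 to 8.06 CPM, with Pnlip at 0 and nearly all of the sum from Cela1. The part of the hepatocyte and macrophage markers in the differences of the 10 genes was not tested.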

How the data were processed

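Liver RNA of 6 animals was sequenced after oligo(dT) selection. The deposited table holds estimated counts per gene, which were already whole numbers, and FPKM, both made by the authors; the submitters' processing notes name HISAT2, StringTie, SAMtools and the rat build mRatBN7.2, whereas the rows carry mouse identifiers. The build of the printed mouse coordinates and the use of strand in counting are not given in the sources used here. Each library was placed in HFD or HTG by its title.

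Counts were fitted for all genes in edgeR 4.0.16 (R 4.3.3; filterByExpr, TMM, quasi-likelihood, group only), with the SE taken from the F statistic. Single values per library were compared by exact permutation. Alternatives were DESeq2 1.42.0 and its size factors, upper-quartile scaling, a minimum of 10 counts in each library, no filter, counts divided by 4, the mitochondrial chromosome left out, the replicate block, each library left out, and limma 3.58.1 on log2(FPKM + 0.1) or log2(FPKM + 1), where a mean FPKM of 1 was required, which leaves out Nrf1. A floor of 12 counts, 3 fragments if 4 counts are about 1 fragment, came to 0.123 to 0.256 CPM per library; all 10 genes were above it. This precision covers counting error only.

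All 10 genes are named. From each list at most 3 genes per direction are named, those with the smallest unadjusted p under 0.05. Pck1 (a classic target), the remaining PGC-1α-driven genes, markers at 0 and overlapping genes are given beside them. Tat and Cela1 were named after their values were seen. Likeness used log2(CPM + 0.5). The 10 genes and the lists were chosen with earlier results of these data known, and support no statement beyond their values.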

Additional observations from a re-analysis of the deposited data

How the results depend on the processing

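Of 158 values of single genes under the alternatives, 144 kept their direction and their side of an unadjusted p of 0.05. The sign of Polg turned under upper-quartile scaling (0.01), and its log2 fold change ran from -0.11 to 0.05 with each library left out; that of Twnk ran from -0.29 to 0.03. With each library left out, 1 to 2 of the 10 genes passed the unadjusted threshold as higher and 1 to 3 as lower. Of all genes, 8.09% to 14.8% were lower in these fits. The fit with 2 of the 10 higher, that without HFD library 2, had 2048 of all 19352 genes higher. The number higher at an adjusted p under 0.05 was 0 in the edgeR test and 1 (Slirp) in DESeq2, with at least 10 counts in every library, and with counts divided by 4; the cause was not tested. Over all genes 2 passed that threshold in edgeR and 2401 in DESeq2, 162 without a filter, 684 with at least 10 counts, 822 with counts divided by 4, 14 without the mitochondrial chromosome, and 83 and 873 in limma with 0.1 and 1 added; with each library left out 0 to 653 passed. Leaving out HTG library 3, chosen after seeing the data because it was the shallowest, gave 2 genes higher and 5 lower with groups apart, beside 21% and 19.3% of all genes. Same-numbered libraries did not deviate together (correlations of -0.13, -0.113 and 0.189), so the numbers were not taken as pairs. The replicate block gave 1 gene higher and 2 lower by the unadjusted threshold, beside 1926 higher and 1941 lower of all 18455 genes. Lonp1 (-0.48, unadjusted p of 0.0561 and adjusted p of 0.25 in edgeR, against adjusted values of 0.0634 to 0.38 over its alternatives) no longer passed. With this block 0 genes of the table passed an adjusted p of 0.05.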
